A study of Homo sapiens with 2 samples.

Results

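The 16 guide RNAs described here were those directed at 3 transcription factor genes, 6 against JUN, 6 against CTCF and 4 against MYC, out of 36 single guide RNAs (sgRNAs) in the captured pool. They were found by name among the sgRNA features of the matrix, and a cell was assigned to the leading sgRNA in it where 5 or more unique molecular identifiers (UMIs, each standing for 1 captured molecule) came from that sgRNA, making up 80% or more of all its sgRNA UMIs. By this rule 2112 of 5556 assigned cells (38.0%) carried 1 of the 16 sgRNAs. The reference group was 700 cells carrying 1 of 4 non-targeting sgRNAs, and the remaining 16 sgRNAs were directed at PGAM1, CTNNB1 and ATF4. The line throughout was PC9, established from a human adenocarcinoma of the lung and dependent on mutant EGFR. Every group, controls included, had received lentivirus in polybrene (8 ug/ml), then puromycin (1 ug/ml) as selection. Knockout is named in the labels, but so are knockdown and dCas9, the cutting-deficient Cas9, so the kind of perturbation is not settled by them. They name both day 8 for the experiment and day 7 for a first harvest. They also describe several sgRNAs in 1 vector, whereas in this matrix at most 3.82% of the cells holding at least 5 UMIs of a CTCF, JUN or MYC sgRNA held that many of 2 sgRNAs of the same gene. Holding that many of an sgRNA from outside the gene, controls included, was more frequent. For the sgRNA of each gene with the most such cells, it was seen in 159 of 547 (CTCF sgRNA 1), 115 of 358 (JUN sgRNA 2) and 18 of 65 (MYC sgRNA 4). The sequences and target sites of the sgRNAs were not analysed here.

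JUN is a subunit of AP-1, a dimeric factor of the JUN, FOS and ATF families that binds enhancers and promoters of growth, matrix and cytokine genes and is driven by kinase cascades downstream of receptors such as EGFR. CTCF is a zinc finger protein that binds a long GC-rich DNA word, stops cohesin rings as they extrude DNA loops, and thereby sets domain borders; it also sits at many promoters. MYC pairs with MAX at E-boxes and raises ribosome, nucleotide and mitochondrial genes. Cells generally tolerate the loss of JUN better than the loss of CTCF or MYC, which most dividing lines need.

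The data were 1 pooled culture with 2 libraries, sgRNA capture and 3' gene expression, in 1 matrix whose 10847 barcodes both libraries share, with 0 duplicated barcodes. The 10142 cells kept had a median of 12239.5 gene UMIs (range 1011 to 39824). Epithelial markers were present (KRT18 at 4435 CPM, the UMIs of a gene scaled to a common total, EPCAM at 268 CPM and EGFR at 392 CPM). Of 8 markers of other cell types, 6 were below 1 CPM, COL1A2 among them at 0, while CD68 stood at 19.5 CPM and COL1A1 at 1.90 CPM. Since all sgRNAs came from 1 culture, the sgRNA was the unit of every test, and p-values reflect nothing but variation among sgRNAs, which may be technical.

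The 3 genes differed widely in how many cells carried their sgRNAs. JUN sgRNAs were in 836 cells (15.05% of assigned cells), and those numbered 1 to 6 had 156, 230, 81, 177, 56 and 136 cells. CTCF sgRNAs were in 1182 cells (21.3%), with 344, 216, 48, 247, 213 and 114 cells. MYC sgRNAs were in 94 cells (1.69%, exact 95% binomial interval 1.37 to 2.07%), with 10, 23, 16 and 45 cells. All 4 MYC sgRNAs thus had fewer cells than any of the 12 sgRNAs of JUN and CTCF, and the smallest of those 12 was CTCF sgRNA 3. The abundance of each sgRNA in the plasmid pool was not analysed here, so these numbers cannot be read as a gain or loss of cells.

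The depth of sgRNA capture also varied. The median number of sgRNA UMIs in assigned cells was 24.5, 17, 7, 22, 15 and 19.5 for JUN sgRNAs 1 to 6. It was 13, 23.5, 12, 14, 14 and 9 for CTCF sgRNAs 1 to 6, and 6, 7, 12 and 11 for MYC sgRNAs 1 to 4. Of the cells in which a MYC sgRNA was the most abundant one, 47.0% were assigned, against 59.7% for JUN, 63.7% for CTCF and 63.3% for the controls, and 93 of the 106 MYC cells lost had under 5 UMIs. JUN sgRNA 3 was the exception in its group, with 36.3% assigned. Among cells that passed the 80% rule, which itself limits this share, a MYC sgRNA had a UMI in 0.0722 to 0.254% of cells assigned to another sgRNA, a JUN sgRNA in 0.461 to 0.799% and a CTCF sgRNA in 0.290 to 1.21%.

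The JUN transcript (ENSG00000177606, chr1:58780791-58784047, minus strand, GRCh38) was close to the control level in some JUN sgRNAs and lower in others. It stood at 72.1, 66.7, 53.8, 81.3, 53.3 and 60.8 CPM with JUN sgRNAs 1 to 6, each a sum over cells. With the 4 non-targeting sgRNAs it stood at 69.3, 78.6, 74.1 and 75.1 CPM. JUN sgRNAs 2, 3, 5 and 6 lay below all 4 controls, sgRNA 1 lay among them and sgRNA 4 above them. The lowest JUN levels were not those of JUN sgRNAs. On library sizes scaled by TMM, CTCF sgRNA 3 and PGAM1 sgRNA 2 ranked 1 and 2 of 34 sgRNAs from below. JUN sgRNAs 5, 3, 6 and 2 ranked 3, 4, 6 and 10. The exact 95% Poisson intervals, which cover counting error only, ran from 40.1 to 70.7 CPM for JUN sgRNA 3, from 38.1 to 72.6 CPM for JUN sgRNA 5 and from 69.9 to 94.0 CPM for JUN sgRNA 4. Over the 6 JUN sgRNAs the standard deviation was 10.9 CPM where counting alone gives 6.95 CPM, while over the controls it was 3.85 CPM where counting gives 6.36 CPM.

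In the edgeR quasi-likelihood fit over 34 sgRNAs with at least 20 cells and 11570 genes, JUN as a group of 6 sgRNAs had a log2 fold change of -0.14 ± 0.096 (SE) for its own transcript, with a Benjamini-Hochberg adjusted p of 1. On the linear scale this is a change of -9.03%, with a 95% interval from -20.3 to 3.82%. A fall of more than that lower bound in the mean over JUN sgRNAs lies outside the interval. Taken alone, JUN sgRNA 5 had a fitted log2 difference of -0.49 ± 0.23 and sgRNA 3 of -0.44 ± 0.21, and neither passed adjustment over all genes (edgeR adjusted p = 0.67 and 0.87), though both were below 0.05 before it. JUN sgRNA 4 had 0.13 ± 0.13. A JUN UMI was seen in 51.3, 48.3, 38.3, 50.3, 35.7 and 44.9% of the cells of JUN sgRNAs 1 to 6, and in 48.05 to 51.6% of the cells of the controls.

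The CTCF transcript (ENSG00000102974, chr16:67562526-67639177, plus strand) was lowest with CTCF sgRNA 3. The 6 CTCF sgRNAs gave 41.4, 33.0, 20.8, 41.9, 36.2 and 34.6 CPM, and the 4 controls 42.1, 47.6, 40.8 and 35.6 CPM. CTCF sgRNAs 2, 3 and 6 lay below all 4 controls, and the other 3 lay among them. With sgRNA 3 the level was the lowest of all 34 sgRNAs in the fit, on 13 CTCF UMIs in 48 cells (95% Poisson interval 11.1 to 35.6 CPM). A low rank was not particular to CTCF in this sgRNA. On library sizes scaled by TMM, it also ranked 1 of 34 from below for JUN and 2 of 34 for MYC. The log2 fold change of CTCF over its 6 sgRNAs was -0.18 ± 0.11 (edgeR adjusted p = 0.88), a change of -11.4% with a 95% interval from -23.8 to 2.95%. Alone, sgRNA 3 had -1.01 ± 0.38 (edgeR adjusted p = 0.11 over all genes), sgRNA 2 had -0.34 ± 0.18 and sgRNA 1 had -0.037 ± 0.15. Among the CTCF sgRNAs that of sgRNA 3 alone was below 0.05 before adjustment. The standard deviation over CTCF sgRNAs was 7.68 CPM against 4.75 CPM from counting.

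CTCF was also seen in fewer cells of sgRNA 3. A CTCF UMI was present in 39.0, 28.7, 22.9, 35.6, 35.2 and 33.3% of the cells of CTCF sgRNAs 1 to 6, and in 35.1 to 39.6% of the cells of the controls. For sgRNA 3 these were 11 of 48 cells, with an exact 95% binomial interval from 12.03 to 37.3%.

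The MYC transcript (ENSG00000136997) was above the controls in most MYC sgRNAs. Its level was 55.9, 142, 98.9 and 86.7 CPM for MYC sgRNAs 1 to 4, while the controls had 63.1, 72.2, 72.6 and 71.3 CPM. sgRNAs 2, 3 and 4 thus lay above all controls and sgRNA 1, on 6 MYC UMIs in 10 cells, below them. The interval for sgRNA 2 ran from 100.4 to 195 CPM and that for sgRNA 4 from 62.5 to 117 CPM. Only sgRNAs 2 and 4 had enough cells for the fit, where the group had a log2 difference of 0.62 ± 0.25 (adjusted p = 0.48 in edgeR). That is a change of 53.6%, with a 95% interval from 8.81 to 117%. Alone, sgRNA 2 had 1.01 ± 0.32 (edgeR adjusted p = 0.27 over all genes) and sgRNA 4 had 0.33 ± 0.28. Before adjustment the contrast of sgRNA 2 was below 0.05 and that of sgRNA 4 was not. The cells of MYC sgRNAs were shallower and more often scored as G1, with median depths of 9654 to 10342.5 gene UMIs against 12000 to 12656 for the controls and G1 shares of 66.7 to 75.0% against 53.2 to 62.3%; the part of these in the MYC level was not tested.

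Since the chance of seeing a UMI depends on depth, each cell was also thinned to 5000 gene UMIs before the shares were compared. The share of thinned cells with a JUN UMI was 26.9 ± 3.42% (SD, n = 6 sgRNAs) with JUN sgRNAs and 27.9 ± 3.87% (n = 4) with controls (2-sided exact permutation over sgRNAs, p = 0.68, adjusted over the 3 genes 0.68). For CTCF it was 15.0 ± 4.26% (n = 6) against 17.9 ± 0.671% (n = 4), exact permutation p = 0.095, adjusted 0.14. Without CTCF sgRNA 3, the difference for CTCF was -1.19 percentage points in place of -2.86. For MYC it was 42.0 ± 11.2% (n = 4) against 29.3 ± 3.10% (n = 4), exact permutation p = 0.086, adjusted 0.14. The smallest p these designs allow is 0.0095 for JUN and CTCF and 0.029 for MYC. None of the 3 shares thus passed the test. Some directions differed between settings. Without thinning MYC was 51.7% against 53.8%, and at 3000 UMIs the JUN and CTCF shares were above the controls by 2.79 and 0.994 points. Each thinned depth was a single random draw of UMIs that was not repeated, so depth and the draw cannot be told apart here.

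The 16 sgRNAs of JUN, CTCF and MYC contrast in this respect with the other 16 targeting sgRNAs. Of the 16, 8 had their own transcript below the lowest of the 4 controls and 4 above the highest, while of the 16 against PGAM1, CTNNB1 and ATF4 all 16 lay below the lowest control. The PGAM1 sgRNAs gave 53.2 to 102 CPM of PGAM1 where the lowest control had 204 CPM, and the CTNNB1 sgRNAs gave 14.9 to 34.0 CPM where the lowest control had 42.9 CPM. These counts share their controls and are given without a test. sgRNAs directed at other genes also lay outside the control range for JUN, CTCF and MYC. On library sizes scaled by TMM, the lowest control ranked 15 of 34 sgRNAs from below for JUN and 12 of 34 for CTCF. For MYC the highest control ranked 19 of 34 from below.

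Over all genes the 3 groups of sgRNAs moved few transcripts. With JUN sgRNAs 1 of 11570 genes passed an adjusted p under 0.05 (0.00864%; 0.00864% higher, 0% lower). With CTCF sgRNAs 3 genes passed (0.0259%; 0.0173% higher, 0.00864% lower). With MYC sgRNAs 32 genes passed (0.277%; 0.164% higher, 0.112% lower). DESeq2 called 0 genes for JUN, 0 for CTCF and 83 for MYC, and at an unadjusted p under 0.05 edgeR had 536, 721 and 906 genes.

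PI3, which encodes the elastase inhibitor elafin, was the 1 gene that rose with JUN sgRNAs. It stood at 81.3, 104, 136, 124, 125 and 54.8 CPM with JUN sgRNAs 1 to 6, and at 52.3, 40.5, 50.8 and 74.9 CPM with the controls (CPM here and for other genes below on library sizes scaled by TMM). JUN sgRNAs 1 to 5 lay above all controls and sgRNA 6 among them. The log2 fold change was 0.95 ± 0.16 (edgeR adjusted p = 0.0015). The count of 1 became 0 without non-targeting sgRNA 1, without non-targeting sgRNA 2 and with the stricter or looser sgRNA rule, 2 without non-targeting sgRNA 4 and 3 without JUN sgRNA 6.

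The next genes by p did not pass. IL11, a cytokine of the IL6 family, had 39.4, 29.4, 32.3, 32.1, 50.4 and 33.7 CPM with JUN sgRNAs and 50.5 to 65.0 CPM with controls (log2 fold change -0.64 ± 0.15, edgeR adjusted p = 0.18). JUN sgRNA 5 and the lowest control were almost level, at 50.38 and 50.46 CPM. CCNB1, the mitotic cyclin, had 107 to 192 CPM with JUN sgRNAs against 94.0 to 121 CPM (0.39 ± 0.091, edgeR adjusted p = 0.18). KIF18A, a mitotic kinesin, had 15.0 to 31.8 CPM against 7.88 to 18.1 CPM (0.77 ± 0.18, edgeR adjusted p = 0.23). G1 shares were 50 to 65.4% over JUN sgRNAs and 53.2 to 62.3% over controls. MARCH9, a membrane ubiquitin ligase, had 6.63 to 12.9 CPM against 15.3 to 25.6 CPM (-0.70 ± 0.17, edgeR adjusted p = 0.27). The JUN paralogs JUNB and JUND had log2 fold changes of -0.020 ± 0.076 and 0.053 ± 0.080.

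Of 19 tested genes on a list of AP-1 targets, 0 passed with JUN sgRNAs, and 14 had a log2 fold change below 0 (73.7%, against 48.9% of all genes tested). Their median was -0.10, beside 0.0036 over all genes. The lowest were MMP9, a matrix protease, at -0.88 ± 0.34, and CXCL8, a neutrophil chemokine, at -0.40 ± 0.15. Of 15 tested members of the JUN, FOS, ATF and MAF families 0 passed, with log2 fold changes between -0.22 and 0.18.

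Single JUN sgRNAs also moved few genes against the controls. sgRNAs 1 to 6 alone had 0, 3, 5, 5, 15 and 0 genes past the threshold (0%, 0.0259%, 0.0432%, 0.0432%, 0.13% and 0%). PI3 was called with sgRNAs 2, 3, 4 and 5. A call of PI3 was not particular to JUN sgRNAs, since it was also among the 9 genes (0.0778%) called with CTCF sgRNA 4 alone. The same contrast made for each non-targeting sgRNA alone against the other 3 gave 0, 1, 0 and 28 genes, the 28 with non-targeting sgRNA 4, so the JUN counts lie within the range that single controls reach.

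The CTCF sgRNAs differed widely in how many genes moved. Alone against the controls, sgRNAs 1 to 6 had 0, 93, 646, 9, 2 and 0 genes past the threshold (0%, 0.804%, 5.58%, 0.0778%, 0.0173% and 0%). sgRNA 3, with the lowest CTCF level and the fewest cells, had 392 genes higher (3.39%) and 254 lower (2.2%). sgRNA 2 had 65 higher (0.562%) and 28 lower (0.242%). The 16 sgRNAs of PGAM1, CTNNB1 and ATF4 alone had 0 to 125 genes, so the count for CTCF sgRNA 3 exceeded those of the other sgRNAs so contrasted. A single sgRNA has no replicate, and its p-value borrows the spread between sgRNAs of the other groups.

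The count for sgRNA 3 was similar under another reference. Against the mean of the other 5 targets it was 703 genes, of which 567 were called under both references, all with the same direction. It was 570 to 706 when a non-targeting sgRNA was left out, 366 with the stricter sgRNA rule, 209 in cells scored as G1 and 176 in cells with at most 10% mitochondrial UMIs, the last 2 with 22 cells each. For sgRNA 2 the count was 145 against the other targets, with 77 shared, and 6 in cells with at most 10% mitochondrial UMIs. The called genes of sgRNA 3 were spread over all chromosomes, with 3.72 to 8.79% of tested genes called on each of 23 chromosomes and chromosome medians of the log2 fold change from -0.080 to 0.039. Its cells had a median of 12983.5 gene UMIs and 10.3% mitochondrial UMIs, where the controls had 12000 to 12656 UMIs and 10.7 to 11.4%, and a G1 share of 45.8% where the controls had 53.2 to 62.3%. The part of these in the called genes was not tested.

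STAG1 and TTYH1 rose, and EEF1A2 fell, over the 6 CTCF sgRNAs together, and in each case sgRNAs 2 and 3 lay farthest out. STAG1, a subunit of the cohesin ring that CTCF stops on DNA, stood at 15.0, 31.5, 63.8, 23.5, 19.5 and 15.6 CPM with CTCF sgRNAs 1 to 6 and at 8.89, 9.89, 15.6 and 7.88 CPM with controls. All but sgRNA 1 lay above all controls, though sgRNA 6 and the highest control were almost level, at 15.64 and 15.59 CPM. The log2 fold change over the group was 1.12 ± 0.22 (edgeR adjusted p = 0.012). In single cells a STAG1 UMI was seen in 25 of 48 cells of sgRNA 3 (52.1%, exact interval 37.2 to 66.7%), in 28.2% of the 216 cells of sgRNA 2 and in 11.7% of the 700 control cells.

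TTYH1, a chloride channel of the tweety family, stood at 26.7, 50.1, 110, 36.3, 30.2 and 32.0 CPM with CTCF sgRNAs 1 to 6 and at 17.3 to 22.7 CPM with controls. The fitted log2 difference was 1.01 ± 0.18 (edgeR, adjusted p = 0.0060). EEF1A2, a tissue-restricted translation elongation factor, stood at 397, 226, 190, 287, 373 and 377 CPM against 387 to 431 CPM. All but sgRNA 1 lay below all controls, and the log2 fold change was -0.37 ± 0.079 (edgeR adjusted p = 0.041). AKR1C1, an aldo-keto reductase, did not pass (0.32 ± 0.075, edgeR adjusted p = 0.11), at 557 to 739 CPM with CTCF sgRNAs and 483 to 556 CPM with controls. These 3 calls depended on single sgRNAs: the count was 24 without sgRNA 1, 0 without sgRNA 2, 6 without sgRNA 3, 8 without sgRNA 5, 12 without sgRNA 6, 1 without both 2 and 3, 0 without non-targeting sgRNA 1 and 1 without non-targeting sgRNA 2.

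SYCE3, a synaptonemal complex protein otherwise used in meiosis, showed the same order. It stood at 1.79, 23.2, 134, 13.2, 1.91 and 2.84 CPM with CTCF sgRNAs 1 to 6 and at 0.503 to 3.94 CPM with controls. CTCF sgRNAs 2, 3 and 4 lay above all controls and sgRNAs 1, 5 and 6 among them. In cells, SYCE3 was detected in 33 of 48 cells of sgRNA 3 (68.8%), in 14.8% of cells of sgRNA 2 and in 1.86% of control cells, and no single cell gave more than 7.32% of the SYCE3 UMIs of sgRNA 3. The group of 6 did not pass (3.19 ± 0.72, edgeR adjusted p = 0.093). PRSS2, a trypsinogen gene, was detected in 25% of cells of sgRNA 3, 9.72% of cells of sgRNA 2 and 1.71% of control cells.

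For a closer look at sgRNA 3, 24 genes were chosen after their values were seen, namely the 12 largest changes in each direction among genes called against both references with a mean of at least 30 CPM over the 34 sgRNAs. The values of sgRNA 3 for them are therefore a description. Among those higher were CST3, the secreted protease inhibitor cystatin C, at 1042 CPM against 378 ± 31.3 CPM in controls (SD, n = 4), and C12orf57 at 502 against 178 ± 7.18 CPM. IDH2, the mitochondrial isocitrate dehydrogenase, stood at 108 against 30.8 ± 0.809 CPM, and CLU, the extracellular chaperone clusterin, at 240 against 90.8 ± 11.4 CPM. The secreted protein gene WFDC2 stood at 337 against 123 ± 48.1 CPM.

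The genes that were lower with sgRNA 3 included several close to absence. BOLA3, which acts in mitochondrial iron-sulfur cluster assembly, stood at 8.18 CPM (5 UMIs) against 106 ± 5.45 CPM in controls, and was detected in 10.4% of cells against 69.0%. MAL, a membrane raft protein, stood at 63.8 against 337 ± 22.9 CPM and was detected in 43.8% of cells against 93.4%. C15orf48 stood at 16.4 against 145 ± 18.3 CPM. PPA2, the mitochondrial inorganic pyrophosphatase, had 2 UMIs, and the control level was 20.7 times higher with a counting interval from 5.74 to 171 times. INHBA, a subunit of activin, had 1 UMI, with a ratio of 32.2 and an interval from 5.78 to 1273.

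DKK1 and C1R had 0 UMIs in the 624734 gene UMIs of sgRNA 3. DKK1 encodes a secreted WNT inhibitor and C1R a complement protease. Set against a floor of 3 UMIs over that library, DKK1 was at least 2.93-fold lower than in control cells and C1R at least 2.56-fold lower.

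The other CTCF sgRNAs were then compared on these 24 genes. Their changes had not been used to choose the genes, though their counts entered the mean of at least 30 CPM. The shares over all genes given beside them start from 10 CPM, a lower cut, so the 2 sets are not alike in level. sgRNA 2 lay above the highest of 28 sgRNAs (the controls and the other 5 targets) in 7 of the 12 higher genes and below the lowest in 5 of the 12 lower ones, where 1.84% and 1.30% of all 7719 genes of at least 10 CPM did so. sgRNA 4 did so in 2 and 2 (0.713% and 0.531% of all genes), and sgRNA 1 in 2 and 0 (0.233% and 0.155%). sgRNAs 5 and 6 did so in 0 and 0, where 0.907% and 0.816% of all genes did so with sgRNA 5 and 2.85% and 2.14% with sgRNA 6. For BOLA3 sgRNA 2 had 83.9 CPM, within the range of the 28 (73.5 to 131 CPM). For MAL it had 233 CPM, below that range (291 to 376 CPM), and for CST3 620 CPM, above it (315 to 456 CPM). sgRNA 2 thus shared part of the pattern at a smaller size, and the comparison shares its 28 reference sgRNAs with that of sgRNA 3.

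Not all genes of sgRNA 2 came from many cells. FABP5, a fatty acid binding protein, rose with sgRNA 2, but its 47 UMIs lay in 7 of 216 cells, and MT1E, a metallothionein, had 48.3% of its UMIs in 1 cell. sgRNA 3 had 0 FABP5 UMIs and 1 MT1E UMI. STAG1, SYCE3 and TTYH1 by contrast were in 61, 32 and 74 of the 216 cells of sgRNA 2.

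With CTCF sgRNA 3, 8 of 19 tested AP-1 targets were lower and 0 higher, where 2.2% of all genes were lower. They included CXCL8, EREG, AREG, ITGA2, HBEGF, HMGA1 and PLAU, among them 3 ligands of EGFR (EREG, AREG and HBEGF). The list's median log2 fold change was -0.54, beside -0.024 over all genes. HBEGF stood at 8.18 CPM on 5 UMIs, against 42.3 CPM in controls, and PLAU, the urokinase gene, at 11.4 against 55.8 CPM. With CTCF sgRNA 2 the same list had 1 gene lower, CXCL8 at -0.79 ± 0.16, and 1 higher, AREG at 0.61 ± 0.16 (edgeR adjusted p = 0.028, and 0.14 against the other targets). AREG thus moved in opposite directions with sgRNAs 2 and 3. For CXCL8, 1 cell gave 50% of the 20 UMIs of sgRNA 3.

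Of 19 tested CTCF and cohesin genes, STAG1 and STAG2, the alternative cohesin subunits, were higher with sgRNA 3 and 0 were lower, where 3.39% of all genes were higher and 2.2% lower. STAG2 stood at 190 against 125 CPM (0.61 ± 0.16, edgeR adjusted p = 0.012). With all CTCF sgRNAs together STAG1 was the 1 gene of this list called, and the list's median was 0.029, beside 0.0039 over all genes. CTCF's germline paralog CTCFL was not among the genes tested. Of 15 p53 targets, FAS, a death receptor, was the 1 called with sgRNA 3, higher and on 9 UMIs, where 3.39% of all genes were higher.

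Because CTCF binds promoters through a known DNA word, the promoters of the genes that were lower with sgRNA 3 were searched for its core. The word was CCNNNAGNNGGC (N is any base), on both strands, in the window from 250 bases before to 50 after the start of each gene, from RefSeq on GRCh38.p14. It was in 15.0% of the 8958 tested genes with a window, and in 10.6% of all 27305 windows. It was in 43 of 201 windows (21.4%) of genes lower with sgRNA 3 and in 36 of 300 (12%) of genes higher. Of the lower genes with a fitted log2 fold change below -2 it was in 12 of 45 (26.7%). The median GC content was 65.0% in the lower set, 64.7% in the higher set and 65.7% over all tested genes. It was higher, at 69.0%, in the set below -2, and the part of this in its share was not tested. With CTCF sgRNA 2 it was in 3 of 23 lower and 5 of 50 higher windows. These shares carry no test, a match is not a binding site, and the sets were chosen by the measured change.

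The word is printed for the 6 of those 12 genes with the highest control level, since these are the windows behind the share just given. Each line reads 5′ to 3′ on the strand that holds the word, with the word in capitals and up to 9 bases on either side in lower case.
HBEGF: ggctactgaCCGGCAGGTGGC
MRPS2: tcctccgggCCTGTAGGCGGCactgcggcc
SH3RF1: gcgccttccCCGGGAGCGGGCgcggcacct
RAP2B: tccgcggggCCGGGAGGGGGCggggcagtg
N4BP2: agaagcccgCCGCGAGAGGGCgggtgggcg
TTC39A: ttaagtgtcCCTAGAGCGGGCctgaggtcc

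The HBEGF stretch printed lies at chr5:140346833-140346853, with its word at the far edge of the window, 250 bases before the start of this EGFR ligand gene. The MRPS2 stretch lies at chr9:135500604-135500633, with the first base of the word 69 bases before the start of this mitochondrial ribosome gene, whose level was 6.54 CPM on 4 UMIs with sgRNA 3 against 34.9 CPM in controls. For SH3RF1 (chr4:169271129-169271158), RAP2B (chr3:153162091-153162120), N4BP2 (chr4:40056784-40056813) and TTC39A (chr1:51345204-51345233) the UMIs with sgRNA 3 were 3, 2, 3 and 1, against control levels of 21.9, 21.6, 21.2 and 17.1 CPM. BOLA3, PPA2 and INHBA held no such word in their windows.

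With MYC sgRNAs 19 genes rose, among them IFI6, IFI27 and OAS2, which interferon is known to induce, and 13 fell, among them RPL4 and RPS24, which encode ribosomal proteins. Of the 32 genes called, 31 had the same direction with sgRNAs 2 and 4. The genes were called from these same sgRNAs, which favours a shared direction, so this is no independent agreement. IFI6 stood at 250 and 191 CPM with MYC sgRNAs 2 and 4 against 73.2 to 128 CPM in controls (log2 fold change 1.30 ± 0.22, edgeR adjusted p = 0.00035). IFI27 stood at 525 and 339 against 161 to 295 CPM, and the antiviral OAS2 at 33.1 and 29.1 against 3.96 to 8.87 CPM. For IFI6 and IFI27 the highest control was non-targeting sgRNA 4. CEACAM6, a surface adhesion protein, stood at 140 and 137 against 61.2 to 85.7 CPM. CD151, a tetraspanin, stood at 261 and 252 against 152 to 172 CPM.

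The genes that fell with MYC sgRNAs did so by smaller amounts, apart from GAL, the galanin neuropeptide, at 25.7 and 14.6 CPM against 57.9 to 66.0 CPM. HSPD1, the mitochondrial chaperonin, stood at 628 and 693 against 777 to 896 CPM (-0.36 ± 0.080, edgeR adjusted p = 0.018). RPL4, a protein of the large ribosome subunit, stood at 676 and 716 against 884 to 918 CPM. RPS24, EIF3E, LDHB, YBX1 and CHCHD10 also fell, with log2 fold changes from -0.37 to -0.27. Of 33 listed MYC targets HSPD1 was the 1 called, where 0.112% of all genes were called lower, and 28 (84.8%) were below 0, against 54.5% of all genes. The list's median was -0.21, beside -0.044 over all genes. Of 11 tested genes of the MYC and MAX network 0 passed. The lower depth and higher G1 share of these cells, given above, were not tested as to their part here, and in G1-scored cells alone 4 genes were called. A low median of the MYC target list was not particular to MYC sgRNAs. With CTCF sgRNA 3 alone it was -0.22, beside -0.024 over all genes. There 3 of the 33 genes were called lower and 1 higher, where 2.2% and 3.39% of all genes were.

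The MYC counts also changed with the sgRNAs used. Those of sgRNAs 2 and 4 alone lay within the range that single controls reached, given above beside the JUN counts. Alone, sgRNA 2 had 13 genes (0.112%) and sgRNA 4 had 12 (0.104%). The count of 32 was 4 without sgRNA 2, 8 without sgRNA 4, 18 to 20 without non-targeting sgRNA 1, 2 or 3, and 55 when all 4 MYC sgRNAs with at least 10 cells entered.

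Agreement between sgRNAs of 1 gene was described over 2640 genes of at least 50 CPM, as Pearson's r of the deviation of log2(CPM + 1) from the mean over the 34 sgRNAs. These r are across genes, which are not replicates, and all sgRNAs share the library and the centring. The median r was 0.060 among the 15 pairs of JUN sgRNAs, 0.16 among the 15 pairs of CTCF sgRNAs and 0.21 for the 1 MYC pair, beside -0.0063 among controls, 0.43 among ATF4 sgRNAs and 0.22 among PGAM1 sgRNAs. Control pairs ran from -0.12 to 0.22. Pairs with an sgRNA outside the gene had medians of -0.027 for JUN, -0.062 for CTCF and -0.10 for MYC. Their highest r were 0.19, 0.22 and 0.20, so single r of that size were also reached by sgRNAs of different genes.

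Within JUN the highest r were between sgRNAs 2 and 4 (0.29), 1 and 4 (0.27) and 1 and 2 (0.26), the 3 with the most cells. Those 3 were also the JUN sgRNAs with the highest JUN levels. For pairs of sgRNA 5, which had the lowest JUN level among the JUN sgRNAs, r ran from -0.065 to 0.059. Within CTCF, sgRNAs 2 and 3 had r = 0.49, sgRNAs 2 and 4 had 0.35 and sgRNAs 3 and 4 had 0.21. sgRNA 3 had -0.15, -0.095 and -0.18 with sgRNAs 1, 5 and 6, which among themselves had 0.16 to 0.21. By these r, sgRNA 3 stood with sgRNAs 2 and 4 and apart from sgRNAs 1, 5 and 6. sgRNA 4 did not belong to 1 side alone, since it had 0.19 and 0.23 with sgRNAs 1 and 5, the latter above its r with sgRNA 3. sgRNA 4 had a CTCF level of 41.9 CPM, within the controls.

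Genes next to the 3 targets did not pass the test in any group. Within 250 kb, 3 tested genes lay near JUN, with log2 fold changes from -0.31 to -0.087, and 13 near CTCF, with -0.46 to 0.26. Near MYC, the long noncoding RNA gene PVT1 was tested, with -0.54 ± 0.31 (edgeR adjusted p = 0.71).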

How the data were processed

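The authors deposited raw UMI counts per gene or sgRNA and cell barcode, per the file headers the output of Cell Ranger 6.1.2, with hg38 named in the submitters' processing notes. No source used here states filters or doublet removal before deposit.

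From the deposited counts, cells with at least 1000 gene UMIs, 500 genes and at most 20% mitochondrial UMIs were kept (10142 of 10847). Cells were assigned to sgRNAs by the rule above, and no doublet caller was run. Counts were summed per sgRNA with at least 20 cells, giving 267726 to 6430143 UMIs, and tested with edgeR 4.0.16 (R 4.3.3): quasi-likelihood, TMM, filterByExpr, 1 fit for all groups, Benjamini-Hochberg over all genes, threshold 0.05. Single sgRNAs were contrasted in the same way with each as its own group. Confidence intervals are at 95%. Shares of cells used exact permutation tests (scipy 1.17.1). Scripts were tested on simulated data.

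The members, gene lists and the single-sgRNA contrasts were chosen with earlier results of these data known. Named genes were the own transcript, paralogs, the 8 largest called changes each way with at least 10 CPM and 1 direction in every sgRNA, and, where fewer than 5 qualified, the 5 smallest p. Neighbours were taken by distance between gene bodies, in place of the planned distance between starts, in RefSeq on GRCh38.p14. A list of loci known for CTCF insulation had 0 tested genes. Alternatives were another scaling (RLE), DESeq2 1.42.0, no filter, a stricter (10 UMIs, 90%) or looser (3 UMIs, 60%) sgRNA rule, cell subsets, another reference and each sgRNA left out. Values of some single genes are not reported here.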

Additional observations from a re-analysis of the deposited data

Results flagged for a closer look

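Of 68 groups of 4 to 10 sgRNAs examined for a value far from the rest, 8 had one. Chance gives about 1 in 20 for independent groups, whereas these share sgRNAs, and some of their genes were named for their change. CTCF sgRNA 3 stood apart in its group in 3 measures: a CTCF UMI in 6.67% of its thinned cells where the next sgRNA had 15.3%, a G1 share of 45.8% where the next had 58.7%, and SYCE3 at 134 CPM where the next had 23.2 CPM. The first of these rests on 3 of 45 cells in a single random draw of 5000 UMIs per cell. In the draw of 3000 UMIs it did not stand apart, with 5 of 47 cells (10.6%), where the CTCF sgRNAs had 10.5 to 12.2%. CTCF sgRNA 2 had the highest median sgRNA UMI count of its group, 23.5 against 14 for the next. JUN sgRNA 5 had the lowest median mitochondrial share of its group, 9.59%, where the next had 10.9%. JUND stood at 152 CPM with JUN sgRNA 4, where the next JUN sgRNA had 127 CPM. Among the controls, MYC was lowest with non-targeting sgRNA 1 at 63.1 CPM, where the next had 71.3 CPM, and IFI27 was highest with non-targeting sgRNA 4 at 295 CPM, where the next had 183 CPM.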

How the results depend on the processing

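No paired analysis was possible because each library is 1 sample and sgRNA numbers pair nothing across targets. With the sgRNAs of a gene fitted as a group and p adjusted over all genes, the own transcript of JUN, CTCF or MYC passed the threshold under none of the alternatives that gave an adjusted p (DESeq2 gave none for MYC). JUN turned to 0.065 (log2) with at most 10% mitochondrial UMIs and CTCF to 0.19 in G1-scored cells. Leaving out 1 sgRNA gave -0.22 to -0.11 for JUN, -0.23 to -0.12 for CTCF and 0.33 to 0.99 for MYC.

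The count of called genes moved as follows. For JUN it was 0 with DESeq2, the stricter and looser sgRNA rules, at most 10% mitochondrial UMIs and G1 cells, 15 with no filter on low counts and 4 with JUN and control sgRNAs alone, and 0 to 3 with 1 sgRNA left out. For CTCF it was 0 with DESeq2, the stricter rule, at most 10% mitochondrial UMIs and CTCF and control sgRNAs alone, 37 with no filter, 7 in G1 cells, 1 without sgRNAs 2 and 3 and 0 to 24 with 1 left out. For MYC it was 83 with DESeq2, 1 with the stricter rule, 92 with the looser rule, 4 in G1 cells, 51 with MYC and control sgRNAs alone, 55 from 10 cells up and 4 to 39 with 1 left out; at most 10% mitochondrial UMIs left too few MYC cells and was not run. For CTCF sgRNA 2 alone it was 59, 6, 53 and 145 (stricter rule, at most 10% mitochondrial UMIs, G1 cells, other targets as reference) and 58 to 122 without 1 control. For CTCF sgRNA 3 alone it was 366, 176 and 209 for the first 3 of these, and 570 to 706 without 1 control.

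The difference in the share of cells with a UMI turned for JUN at 3000 UMIs (2.79 points), under the stricter rule (2.70), with at most 10% mitochondrial UMIs (0.286), without non-targeting sgRNA 4 (0.445) and without JUN sgRNA 5 (0.0239), for CTCF at 3000 UMIs (0.994) and for MYC without thinning (-2.11). Leaving out 1 sgRNA gave -2.35 to 0.445 points for JUN, -3.48 to -1.19 for CTCF and 7.85 to 16.7 for MYC. JUND with JUN sgRNAs turned to -0.020 (log2) without JUN sgRNA 4, with a range of -0.020 to 0.10 when 1 sgRNA was left out. The causes were not tested. The alternatives for single CTCF sgRNAs and the reading without sgRNAs 2 and 3 were chosen after seeing the data. MYC sgRNAs, with 94 cells, and CTCF sgRNA 3, with 48, limit what their levels can show.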
